A study of Mus musculus with 16 samples.

Results

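Long stable blocks of H3K36me3 in mouse hematopoietic stem cells are stretches of the genome in which neighbouring H3K36me3 peaks ran together over at least 10000 bp. They were selected on H3K36me3 peak positions: peaks of 5 H3K36me3 libraries were merged where they overlapped or touched, and a merged region was kept when a peak of every one of the 5 libraries lay in it and its merged width was 10000 bp or more. All 5 libraries held 16247 of the 77590 merged regions, and 2218 of these were blocks. The blocks were 2.86% of the merged regions and 18.7% of their summed length, 33.3 of 178 Mb. The other 14029 shared regions, called shorter shared regions here, had a median width of 4169 bp and a summed length of 64.3 Mb. The stem cells, gated as SP-KSL-CD150+, came from the bone marrow of C57BL/6 mice. The old mice were 24 months and the young mice 4 months old. H3K36me3 was profiled by chromatin immunoprecipitation and sequencing (ChIP-seq) in 3 old libraries (replicates 4 to 6) and 3 young libraries (replicates 4 to 6), and the rule left out young replicate 4. H3K27me3 was profiled in 3 old and 3 young libraries (replicates 1 to 3 at each age) and H3K4me3 in 2 old and 2 young libraries (replicates 7 and 8 at each age).

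H3K36me3 is placed on nucleosomes by the methyltransferase SETD2, which travels with elongating RNA polymerase II, so in mammals the mark lies over the bodies of transcribed genes and tends to be strongest away from the promoter. H3K4me3 marks the promoters of such genes, and H3K27me3, the mark of Polycomb repression, is poorly written on nucleosomes that carry H3K36me3. A long H3K36me3 block is therefore usually read as the body of a long transcribed gene or of several neighbouring ones. Genes and sequences are not given for the blocks, because annotation and sequence of the build of the deposited coordinates, mm9, were not used here.

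The deposited values were peak lists, 1 per library, with no read depth, so extent in a list depends on depth and enrichment as well as on the cells, and these cannot be told apart between the ages. The H3K36me3 lists held 6399 to 84437 peaks. Young replicate 4 stood apart, with 6399 peaks over 5.90 Mb, against 39362 peaks or more over at least 41.6 Mb in each of the other 5. Young replicate 5 held the most peaks, but they were narrow, with a median of 354 bp, against 1041 to 1437 bp in the 3 old libraries and 1199 bp in young replicate 6. For H3K27me3, young replicate 1 stood apart, with islands over 0.959% of block length, against 0.171 to 0.397% in each of the other 5. The rule did not set it aside, and this share is itself among the values compared below. Values that rest on this library are therefore given with and without it. The labels call the libraries technical replicates of numbered biological replicates and do not say which animals they came from, and p-values therefore cover only the spread among the libraries used, which may be technical.

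Most blocks were not far above the width limit. The median width was 13232.5 bp, the lower quartile was 11318 bp, 300 blocks (13.5%) reached 20000 bp and 16 reached 40000 bp. The longest block, chr4:146822343-146887100, was 64758 bp wide. Peaks covered 27484, 64030 and 51310 bp of it in old replicates 4, 5 and 6, and 40955 and 63851 bp in young replicates 5 and 6. The second, chr4:138994991-139047925, was 52935 bp wide, with 45091, 49232 and 50947 bp covered in old replicates 4 to 6 and 35653 and 52651 bp in young replicates 5 and 6. In the first block old replicate 4 was lowest and old replicate 5 highest; in the second all old values lay between the young ones. Next in width, chr8:120101590-120151862 spanned 50273 bp and was covered over 44962, 45999 and 47522 bp in the old and 39939 and 49680 bp in the young libraries. After it, chr2:29839769-29888414 spanned 48646 bp, with 39677, 42018 and 39377 bp in the old and 23486 and 45850 bp in the young libraries. The next, chr1:89572083-89619057, spanned 46975 bp, with 36566, 42177 and 42867 bp in the old and 29221 and 43826 bp in the young libraries. In these 3 blocks too, all old values lay between the 2 young ones.

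Regions just inside and just outside the width limit differed little in width. The narrowest blocks, chr17:32465957-32475957 and chr16:44082488-44092488 with 10001 bp each and chr5:150020227-150030228 with 10002 bp, were close in width to the widest shared regions under the limit, chr9:44589893-44599883 with 9991 bp, chr6:47906414-47916403 with 9990 bp and chr17:55823155-55833143 with 9989 bp. Coverage differed more, but its order went both ways. In old replicates 4, 5 and 6 the block on chromosome 16 was covered over 1262, 7481 and 5954 bp, against 6947, 9213 and 8701 bp for the region on chromosome 9 just outside the limit. In young replicates 5 and 6 the values were 1779 and 8276 bp for the block and 4655 and 9424 bp for the region outside. The block chr17:32465957-32475957 had 5450, 9732 and 8329 bp in the old and 4404 and 9578 bp in the young libraries. The region on chromosome 6 outside the limit had 3609, 4730 and 8553 bp in the old and 3347 and 9362 bp in the young libraries. In that pair the block was the less covered in old replicate 6 only.

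**Figure D1:**
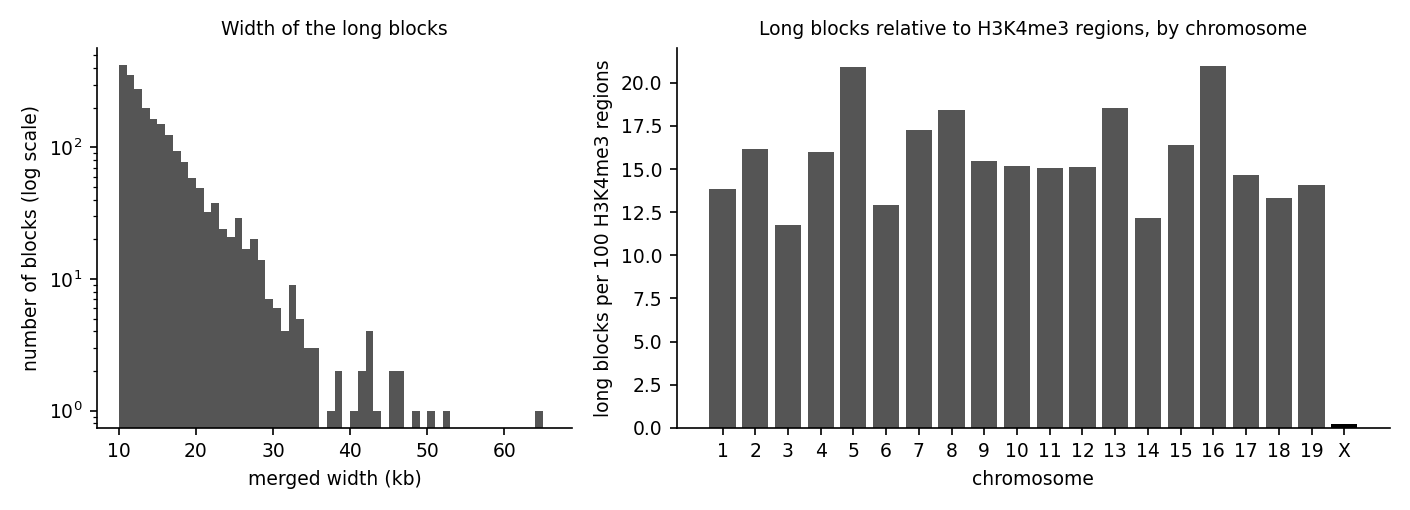
Left, the number of blocks (log scale) in each 1 kb step of merged width; right, the number of blocks per 100 H3K4me3 regions held by all 4 H3K4me3 libraries on each chromosome, without chromosome Y. Numbers fall with width from the limit of 10000 bp, and chromosome X, with 0.213, lies far below the autosomes, which range from 11.7 to 20.98.

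Blocks were spread over all autosomes but were nearly missing from chromosome X. Autosomes held 52 to 192 blocks each, and blocks made up 9.12 to 18.9% of the shared regions of an autosome. Chromosome 7 had the highest share, 180 of 951, and chromosome 18 the lowest, 52 of 570. Chromosome X held 1 block among 68 shared regions, which is 1.47%, although it carried 469 (3.24%) of the 14489 H3K4me3 regions common to the 4 libraries of that mark. Per 100 such H3K4me3 regions there were 0.213 blocks on chromosome X, against 11.7 to 20.98 on the 19 autosomes. The H3K36me3 lists themselves had little on chromosome X, 0.358, 0.392 and 0.539% of covered length in old replicates 4 to 6 and 0.491 and 0.973% in young replicates 5 and 6, and 0.872% in young replicate 4. The H3K4me3 lists had 2.86 to 2.99%. Wide peaks were rarer there too: peaks of at least 3000 bp were 2.48, 3.26 and 0.818% of chromosome X peaks in old replicates 4 to 6, against 11.1, 15.6 and 10.4% of autosomal peaks. In young replicates 5 and 6 they were 0 and 2.35% on chromosome X, against 0.294 and 13.0% on autosomes. H3K27me3 lists also had only 0.470 to 0.606% of their length on chromosome X, and 0.769% in young replicate 1, so a low share was not limited to H3K36me3. The single block, chrX:20606537-20618727, was covered over 11532, 11706 and 9854 bp in the old and 7218 and 11127 bp in the young libraries. Chromosome Y also held 1 block, chrY:603013-618217, covered over 11792, 11733 and 11986 bp in the old and 8122 and 15029 bp in the young libraries.

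Every library held every block by the rule, but the libraries filled the blocks to very different degrees. Peaks covered 60.8, 79.6 and 81.7% of the summed block length in old replicates 4, 5 and 6, and 40.3 and 90.3% in young replicates 5 and 6. The old libraries thus lay between the 2 young ones. At least 50% of a block was covered in 1546, 2136 and 2157 blocks in the old libraries and in 512 and 2215 blocks in young replicates 5 and 6. All 5 libraries reached this mark in 396 blocks (17.9%), 4 libraries in 1196, and 3 or fewer in the rest. All 5 libraries covered 26.2% of the block length together, 4 covered 29.9%, 3 covered 21.9%, 2 covered 14.1% and a single library 7.87%. In 1415 blocks (63.8%) young replicate 6 had the longest coverage, and in 1862 (83.9%) young replicate 5 had the shortest.

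**Figure D2:**
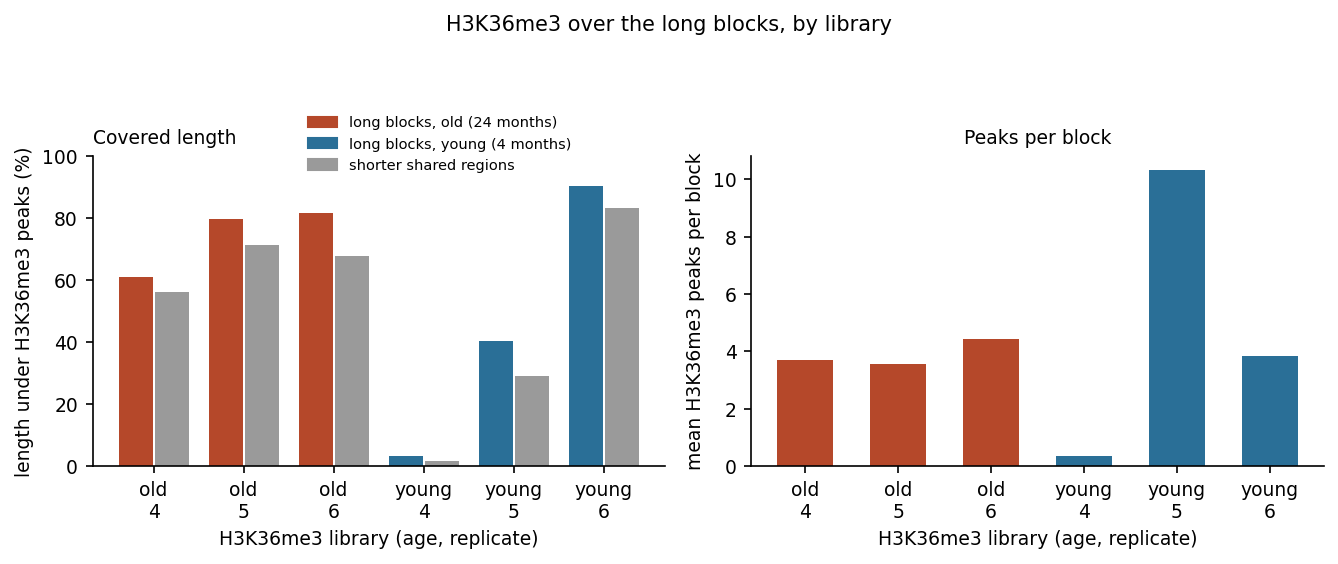
Left, percent of summed length under H3K36me3 peaks in each library, for the 2218 blocks (colour by age) and the 14029 shorter shared regions (grey); right, the mean number of peaks per block. The old libraries, at 60.8 to 81.7% of block length, lie between young replicates 5 and 6, at 40.3 and 90.3%, and young replicate 5 has 10.3 peaks per block.

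Young replicate 6 carried many of the blocks across the width limit. Regions built from the other 4 files without it gave 1320 blocks, and 1295 of the 2218 blocks (58.4%) overlapped one of those. Without young replicate 5 there were 2176 blocks, and without old replicates 4, 5 and 6 there were 2014, 1726 and 1757. A single peak of at least 10000 bp lay in 123, 308 and 329 blocks in old replicates 4 to 6, and in 4 and 475 blocks in young replicates 5 and 6, so in every library most blocks held no single peak of that width. A block held a mean of 3.68, 3.57 and 4.42 peaks in old replicates 4 to 6 and 10.3 and 3.83 in young replicates 5 and 6. The peaks in blocks had a median width of 1767, 2353 and 1742 bp in the old libraries and 407 and 2370.5 bp in the young ones.

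No difference between the ages in these summaries exceeded the spread between libraries. The covered share of the blocks averaged 74.0 ± 11.5% in old (SD, n = 3) and 65.3 ± 35.4% in young libraries (SD, n = 2), a difference of 8.75 percentage points with an exact two-sided permutation p of 0.7. Peaks per block averaged 3.89 ± 0.463 in old and 7.07 ± 4.58 in young libraries, with an exact p of 0.2. The median score percentile of peaks in blocks, which is the share of a library's own list with a lower score, was 63.4, 72.8 and 75.7 in old replicates 4 to 6 and 61.1 and 80.7 in young replicates 5 and 6. Its mean was 70.6 ± 6.44 in old and 70.9 ± 13.8 in young libraries, with an exact p of 1.0. The smallest p that 3 against 2 libraries allow is 0.1, so none of these tests could pass 0.05. Peaks of these same 5 libraries also chose the blocks and set their bounds. These values and their p-values are therefore a description only. The direction rested on young replicate 5: without it the difference in covered share was -16.3 points and that in peaks per block 0.07. Sample titles carry a number that the labels do not explain. Within number 18, old replicate 6 exceeded young replicate 5 by 41.4 points of covered share, and within number 16, old replicate 4 exceeded young replicate 4 by 57.5 points. These 2 young libraries were the least covered, and young replicate 4, which stood apart, had only 3.29% of block length. Young replicate 6, the most covered, shares its number with no old H3K36me3 library.

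Block by block, no change with age passed the test either. Covered length of all merged regions with coverage in at least 2 of the 5 libraries was compared with limma on the scale log2(bp covered + 200). Among the 45120 regions tested 0 were called at a Benjamini-Hochberg adjusted p under 0.05 (0% of regions), and 0 of the 2218 blocks, whose lowest adjusted value was 1.00. Without adjustment, 923 regions had p under 0.05; 18 blocks were higher and 1 lower in old libraries, where 0.414% and 1.63% of all tested regions were. The median log2 change of the blocks was 0.29, against 0.06 over all tested regions, and 1894 blocks (85.4%) had a positive value, against 52.9% of all regions. Centring each library on its median turned these to a median of -0.03 with 46.2% of blocks positive (-0.26 and 35.8% over all regions). Leaving out young replicate 5 turned them to -0.30 with 5.59% positive, and leaving out young replicate 6 to 0.88 with 97.7% positive. All 3 old libraries lay above both young ones in 35 blocks (1.58%), where 4.05% of all tested regions did, and below both in 0 blocks, where 5.12% of all tested regions did. In 1183 blocks (53.3%) the 3 old values lay between the 2 young ones, where 19.1% of all tested regions had them so. The blocks were chosen by peaks of these same 5 libraries, with a peak required in each, while the other regions needed coverage in 2. The medians, shares and counts of blocks set beside all regions therefore rest on values the rule used and are a description only.

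The block with the largest positive log2 change, chr2:157648775-157659128, was covered over 8483, 9004 and 7355 bp in the old and 351 and 5396 bp in the young libraries. All old values exceeded both young ones, with a log2 change of 2.27 ± 0.65 (SE) and a limma adjusted p of 1.00. The block chr8:46112068-46123203 had 10075, 7405 and 6608 bp in the old and 1446 and 4823 bp in the young libraries, again with no overlap and a log2 change of 1.49. In the other 3 of the 5 largest, the old values reached past young replicate 6 in only some libraries. At chr3:144399149-144410127 they were 3622, 9850 and 4379 bp in the old and 450 and 5662 bp in the young libraries (log2 change 1.52). At chr3:84245796-84256345 they were 3947, 9001 and 10315 bp in the old and 976 and 6569 bp in the young libraries (1.39). At chr7:56072193-56083954 they were 6202, 10178 and 7533 bp in the old and 991 and 8574 bp in the young libraries (1.31).

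The 5 blocks with the most negative values did not separate the ages, since old replicate 6 stayed near young replicate 6 in each. At chr2:32522425-32544043, which is 21619 bp wide, peaks covered 8168, 933 and 21481 bp in old replicates 4, 5 and 6 and 13556 and 21474 bp in young replicates 5 and 6, a log2 change of -1.55 ± 0.57 (SE) with a limma adjusted p of 1.00. The blocks chr17:56532170-56543768 (1430, 2198 and 10205 bp in old, 5442 and 10966 bp in the young libraries) and chr11:115908100-115932468 (4257, 10269 and 23610 bp in old, 16453 and 24318 bp in the young libraries) had the same layout. So had chr5:124445179-124460682 (2473, 6178 and 14441 bp in old, 9756 and 14923 bp in the young libraries) and chr11:60518019-60538865 (5550, 4293 and 20514 bp in old, 11409 and 20429 bp in the young libraries). Their log2 changes were -1.21, -0.96, -0.96 and -0.93. Old replicate 6 shares title number 18 with young replicate 5.

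Young replicate 4, which played no part in choosing the blocks, covered 3.29% of block length, against 1.75% of the length of shorter shared regions and 0.565% of that of merged regions held by fewer than 5 libraries. It touched 432 blocks (19.5%), 8.05% of the shorter shared regions and 1.69% of the other regions, counts that also depend on width. The share of blocks touched was 16.02% among blocks below 12000 bp and 28.6% (14 of 49) from 30000 bp. Peaks of young replicate 4 inside blocks stood at a median score percentile of 80.3 in their list, and those in shorter shared regions at 59.9. As 1 library, it allows no test of these differences.

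Young replicate 4 had its longest coverage in 3 blocks. It covered 31129 bp of chr4:146822343-146887100, 23529 bp of chr4:147126342-147171600 and 14855 bp of chr17:22061288-22084290. At least 50% of a block was covered by it in 17 blocks. On the second of the 3 named blocks the other libraries covered 41517, 44204 and 38922 bp in the old and 30861 and 45259 bp in the young libraries, and on the third 21446, 22251 and 17922 bp in the old and 14727 and 19647 bp in the young libraries. The same 3 blocks also lay under islands of young H3K27me3 replicate 1, the other library that stood apart and that shares title number 16, over 28000, 13800 and 6600 bp. Both chromosome 4 blocks held H3K27me3 islands in old replicates 1 and 3 (17000 and 3200 bp on the first, 11400 and 13200 bp on the second) and in young replicate 3 (7000 and 8000 bp), and none in old replicate 2 or young replicate 2. On chromosome 17 no other H3K27me3 library had an island.

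H3K4me3, the promoter mark, was found near the ends of a larger share of blocks than of shorter shared regions, in 4 of 4 libraries. An H3K4me3 peak lay over an edge or within 2000 bp of one in 22.2 and 23.8% of blocks in old replicates 7 and 8 and in 23.2 and 22.0% in young replicates 7 and 8. Among shorter shared regions the shares were 10.4 and 11.2% in old and 10.6 and 10.2% in young libraries. The difference was 12.2 percentage points on average and positive in 4 of 4 libraries, with an exact two-sided sign-flip permutation p of 0.12, the smallest that 4 libraries allow, so this could not pass 0.05. Between the ages the share among blocks averaged 23.0 ± 1.12% in old and 22.6 ± 0.893% in young libraries (SD, n = 2 each), with an exact p of 0.667 by permutation, where 0.33 is the smallest possible. The median distance from a block to the nearest H3K4me3 peak was 9077 and 8874 bp in the old and 9413 and 9537.5 bp in the young libraries. From shorter shared regions it was 19211 and 18254 bp in the old and 19469 and 19744 bp in the young libraries, longer in 4 of 4 libraries, with an exact sign-flip p of 0.12 for the difference.

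**Figure D3:**
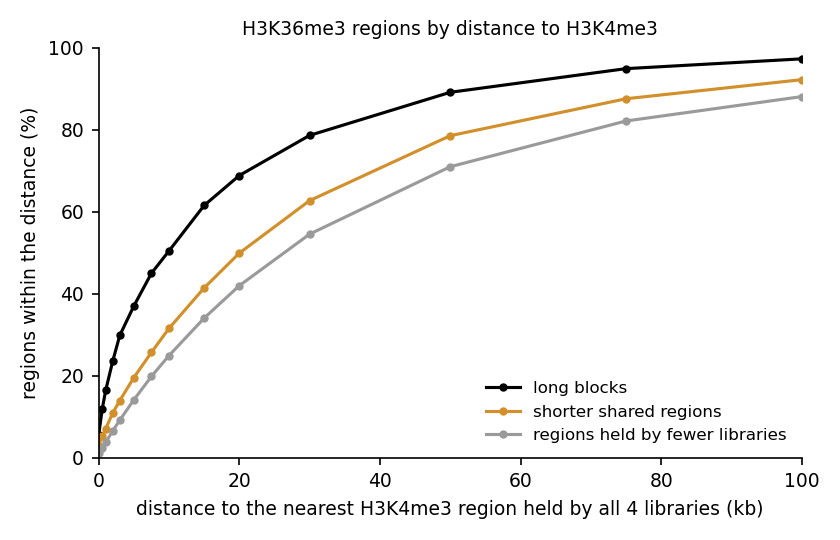
Cumulative percent of H3K36me3 regions (vertical) within a given distance in kb (horizontal) of the nearest H3K4me3 region held by all 4 H3K4me3 libraries, for the blocks, the shorter shared regions and the regions held by fewer than 5 H3K36me3 libraries. The curve of the blocks lies above the others throughout, with 50.5, 31.6 and 24.9% within 10000 bp.

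Few blocks had H3K4me3 inside them, and most had none at either edge. Taking H3K4me3 regions held by all 4 libraries, 54 blocks (2.43%) had one within 2000 bp of both edges, 469 (21.1%) at 1 edge only, and 76.4% at neither. Within 20000 bp of the block lay such a region for 68.8% of blocks, against 49.9% of shorter shared regions, and 241 blocks (10.9%) had none within 50000 bp, against 21.4%. An H3K4me3 peak overlapped 3.70 and 4.82% of blocks in old and 4.28 and 3.79% in young libraries. For shorter shared regions the shares were lower, 2.07 and 2.82% in old and 2.41 and 2.09% in young libraries. Such shares also depend on width. H3K4me3 covered 0.191 and 0.292% of block length in old and 0.211 and 0.173% in young libraries. The share of blocks with H3K4me3 at an edge was 19.1% for blocks below 12000 bp, 28.4% from 15000 to 20000 bp and 22.4% from 30000 bp, so it did not keep rising with width. The 3 longest blocks with no H3K4me3 at an edge ranked next after the longest block of all. The nearest H3K4me3 peak lay 56341 to 56565 bp from chr4:138994991-139047925, 45007 to 45315 bp from chr8:120101590-120151862 and 15346 to 15509 bp from chr2:29839769-29888414. At 1 of its edges chr4:138994991-139047925 lay beside another block. The 2 blocks together spanned 95972 bp, with 95916 bp inside them, so that edge was not the end of the marked stretch.

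The width of H3K4me3 peaks at block edges was compared with that at the edges of shorter shared regions, and no difference passed the test. Their median width was 1623 and 1914.5 bp in old replicates 7 and 8 and 1921.5 and 1800.0 bp in young replicates 7 and 8, against 1664 and 1901 bp in the old and 1968.5 and 1810 bp in the young libraries at the edges of shorter shared regions. The mean difference was -21.1 bp, negative in 3 of 4 libraries, with an exact sign-flip p of 0.375, where 0.12 is the smallest possible. Peaks at either kind of edge had a larger median width than all H3K4me3 peaks, whose median was 1330 and 1469 bp in the old and 1676 and 1527 bp in the young libraries. A wider peak more easily comes within 2000 bp of an edge, and all peaks include those at edges. That comparison with all peaks is therefore a description only.

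The 469 blocks with H3K4me3 at a single edge could be oriented by it. Each was cut into 5 equal steps. From the step nearest to H3K4me3 to the farthest, mean coverage was 47.4, 65.7, 70.1, 69.3 and 51.6% in old replicate 4. It was 73.9, 84.4, 88.8, 88.2 and 74.6% in old replicate 5 and 73.7, 88.0, 90.2, 91.5 and 76.5% in old replicate 6. Young replicate 5 had 34.4, 48.9, 51.1, 54.2 and 37.0%, and young replicate 6 had 87.1, 94.7, 94.9, 95.4 and 87.6%. Coverage was lowest at both ends, where the outermost peaks of any library set the bounds, and highest in step 3 or 4. The step nearest to H3K4me3 was less covered than the farthest in 5 of 5 libraries. The differences ran from -4.27 to -0.504 percentage points, with a mean of -2.18. The exact sign-flip p was 0.062, the smallest that 5 libraries allow. However, the peaks of these 5 libraries also chose the blocks and shorter shared regions and set both of their edges. The step differences in both classes and this p-value are therefore a description only. In the 1325 shorter shared regions with H3K4me3 at 1 edge only, nearest minus farthest was -7.30, -3.52 and -5.69 points in old replicates 4 to 6 and -2.56 and 2.71 points in young replicates 5 and 6. It was thus below the value of the blocks in the 3 old libraries and above 0 in young replicate 6, and the slope is not particular to the blocks. Young replicate 4 had the same order in the blocks, with 1.64% in the nearest step, 8.30% in step 4 and 3.58% in the farthest.

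**Figure D4:**
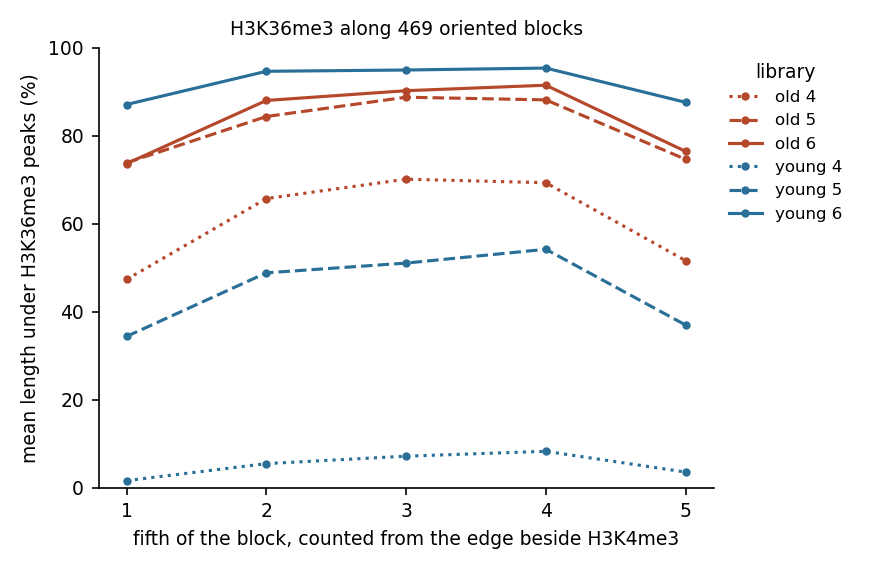
Mean percent of length under H3K36me3 peaks in each of 5 equal steps of the 469 blocks with H3K4me3 at 1 edge only, counted from that edge, with 1 line per library (colour by age, line type by replicate). In each of the 6 libraries the curve is highest in step 3 or 4, and nearest minus farthest lies between -4.27 and -0.504 points.

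Little H3K27me3 lay in the blocks. Its islands covered 0.397, 0.171 and 0.309% of block length in old replicates 1, 2 and 3 and 0.178 and 0.311% in young replicates 2 and 3. These averaged 0.292 ± 0.114% in old (SD, n = 3) and 0.244 ± 0.0936% in young libraries (SD, n = 2), and the exact p by permutation was 0.8. Young replicate 1 had 0.959%, and with it the old minus young difference was -0.19 points. Shorter shared regions were covered to much the same extent, 0.256, 0.241 and 0.245% in old and 0.171 and 0.314% in young libraries. The difference between the classes averaged 0.03 points, was positive in 3 of 5 libraries and had an exact sign-flip p of 0.562. With young replicate 1 it averaged 0.0066 points, with an exact sign-flip p of 0.906. No island of any of these 5 libraries touched 2107 blocks (95.0%), 68 blocks were touched in 1 library and 6 in all 5.

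**Figure D5:**
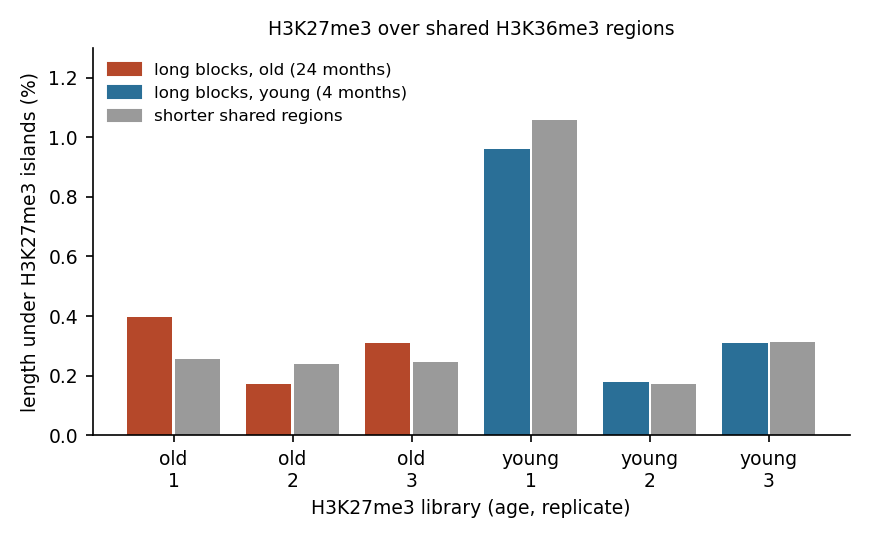
Percent of summed length under H3K27me3 islands in each H3K27me3 library, for the blocks (colour by age) and the shorter shared regions (grey). Apart from young replicate 1, at 0.959 and 1.06%, all values lie between 0.171 and 0.397%.

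H3K27me3 islands lay over at least 50% of 1, 2 and 2 blocks in old replicates 1 to 3, of 1 block each in young replicates 2 and 3, and of 3 blocks in young replicate 1. The largest mean H3K27me3 share over the 5 libraries, 84.0%, was at chr8:114346541-114359083, a block of 12543 bp. H3K27me3 islands covered 11460, 12460 and 11860 bp of it in old and 7660 and 9260 bp in the young libraries, and H3K36me3 peaks covered 9857, 10423 and 5561 bp in the old and 2885 and 10315 bp in the young libraries. Next came chr8:46112068-46123203 with 52.6%, where islands covered 1533, 9933 and 8533 bp in the old and 5533 and 3733 bp in the young libraries. It was also among the 5 blocks with the largest positive H3K36me3 change given above. The next, chr7:52675803-52687702, had 20.5%, with 2398, 2798 and 2398 bp in the old and 2798 and 1798 bp in the young libraries. No island of young replicate 1 lay in any of the 3. Whether both marks sit on the same nucleosomes or in different cells of the sorted population cannot be told apart in peak lists of pooled cells.

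The blocks were closer to H3K27me3 islands than shorter shared regions in each of the 5 libraries, though not in young replicate 1. The median distance to the nearest island was 56108, 75025.5 and 46750 bp in old replicates 1 to 3 and 75049.5 and 50941 bp in young replicates 2 and 3. From shorter shared regions it was 74209, 105137 and 65421 bp in the old and 110756 and 71105 bp in the young libraries. The difference averaged -24551 bp and was negative in 5 of 5 libraries, with an exact sign-flip p of 0.062, the smallest 5 libraries allow. Young replicate 1 had the opposite order, 250220 bp from blocks and 170209 bp from shorter shared regions, and with it the mean difference was -7124 bp with an exact p of 0.75.

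Many blocks had another shared H3K36me3 region close by. The median gap from a block to the nearest other shared region was 2793 bp, and 838 blocks (37.8%) had one within 1000 bp. Of the 1472 gaps of at most 5000 bp beside a block, 47 (3.19%) held an H3K4me3 region of all 4 libraries. Joining blocks at most 2000 bp apart gave 116 chains that took in 239 blocks (10.8%). The longest chain, chr4:138951954-139047925, spanned 95972 bp with 2 blocks, 95916 bp of it inside them. It was followed by chr5:145536101-145623132 with 87032 bp and chr17:47064136-47130655 with 66520 bp, each of 2 blocks. These bounds are those the rule used, so no test was made of them.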

How the data were processed

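Peaks were called per library by the authors. The build is mm9 and the tools named are SICER, MACS and CASAVA 1.4, per the submitters' processing notes. Aligner, thresholds and input libraries are not stated in those notes or in the labels. H3K4me3 and H3K36me3 lists have the layout of MACS peaks, H3K27me3 lists that of SICER islands on a grid of 200 bp. Each deposited list gives a score per peak of unstated unit, used only to rank peaks within a list. The 5 H3K36me3 lists were merged (overlapping or touching peaks), and a library held a region from 1 bp of overlap. Covered length was tested with limma 3.58.1 (R 4.3.3) with a trend and Benjamini-Hochberg adjustment over all regions covered in at least 2 libraries. The code was first checked on simulated data with a spread set by hand. That check does not show what size of change these libraries could reveal. Single values were compared with exact permutation tests over libraries (Python 3.11.15, numpy 2.4.6). Named blocks are the 5 longest, the 3 nearest the width limit on each side, the 5 largest changes each way, and the 3 highest for H3K27me3 share, for young replicate 4 and for length without H3K4me3; the sex chromosome blocks and the chains were chosen after their values were seen. Members and measures were chosen with earlier results of these data known. The comparisons of distance to H3K4me3 and H3K27me3, the blocks built from 4 files, the value without the 3 blocks of largest H3K27me3 share, title number 16 and the edge of 20000 bp were added after seeing the data.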

Additional observations from a re-analysis of the deposited data

How the results depend on the processing

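Limma called 0 regions under every alternative that kept at least 2 libraries at each age. Leaving out young replicate 5 or young replicate 6 left 1 young library. The blocks' median log2 change was then -0.30 without young replicate 5 and 0.88 without young replicate 6. The number of blocks was 4876 with gaps of up to 1000 bp merged, 300 with a limit of 20000 bp, and 1320 to 2176 when built without 1 library. The old minus young difference in covered share ran from -16.3 to 33.8 points without 1 library, in peaks per block from -6.42 to 0.0651, and in score percentile from -10.0 to 9.5. With young replicate 4 they were 29.4 points and -0.935 peaks, and with equal numbers of peaks per list 14.3 points and -1.11 peaks. The replicate block compared old and young libraries of the same replicate number, which need not share a title number. Without young replicate 4, it gave the same difference as leaving out old replicate 4, which then had no partner. Covered share was 15.4 points with the replicate block and 4.81 with merged gaps. Peaks per block were -1.98 with peaks at or above the median score and -6.59 with the limit of 20000 bp. The score difference turned to 14.6 within title number 18 and to 3.35 with the replicate block. For H3K27me3 in blocks, old minus young was -0.0183 to 0.114 points without 1 library, -0.19 with young replicate 1, -0.0072 within title number 18, -0.0018 within number 20 and -0.0045 with the replicate block. Blocks minus shorter regions was -0.000347 to 0.0523 points without 1 library, -0.149 with merged gaps and -0.0284 without the 3 blocks of largest H3K27me3 share. H3K4me3 at an edge, old minus young, was -0.36 to 1.22 points without 1 library and -0.99 within number 18. The blocks' median log2 change was -0.30 to 0.88 without 1 library, 2.02 with young replicate 4 (with and without the replicate block) and -0.0268 after centring. With young replicate 4 the 5 most negative blocks became positive, in the order given above 0.60, 0.56, 1.26, 1.02 and 1.16. With young replicate 4 included, the replicate block gives the same log2 changes by design, since each replicate number then has 1 library of each age. Without 1 library, 2 of the 5 positive blocks also changed sign: chr3:144399149-144410127 ranged from -0.065 to 3.11 and chr7:56072193-56083954 from -0.13 to 2.75. The cause was not tested. The sign-flip differences for H3K4me3 at an edge, for the distances and for nearest minus farthest step kept their direction in every alternative run. Deviations of libraries with the same replicate number correlated at 0.308, -0.02 and 0.29 for replicates 4, 5 and 6. The 2 pairs that share a title number had the highest of the 9 correlations. Old and young replicate 4 (number 16) had 0.308, and old replicate 6 with young replicate 5 (number 18) had 0.315. Old and young replicate 6, whose title numbers differ, came close at 0.29. Deviations were taken from the mean of each age, young replicate 4 included, so the 9 correlations depend on one another. Whether either number pairs the libraries cannot be told from them. Read depth, which limits how far coverage can be compared, is unknown.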
